A study of Mus musculus with 26 samples.

Results

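Heavy-chain B cell receptor sequences carrying an IgA constant region were compared with those carrying an IgM constant region within the ear skin of wild-type (WT) mice. The comparison rests on the 8 skin libraries among the 26 libraries of the series, which are 4 biological replicates with 2 technical libraries each. A clonotype is a V gene, a J gene and a junction nucleotide sequence, and the copies of both technical libraries were added together. Of the 1267 skin clonotypes, 324 held IgA copies and 745 held IgM copies, with 14 clonotypes counted under both. All mice of the skin, spleen and lymph node groups carried the label S. epidermidies association, that is, association with the skin bacterium Staphylococcus epidermidis, so there was no unassociated group. The labels call the cells B cells and give no age, strain or number of mice per replicate. Since nothing says that the replicates are separate mice, p-values measure only the spread between these samples. The tables list heavy chains alone, so no marker of another cell type was measured.

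IgM is the first class a B cell makes, and IgA is reached by class switching, in which the same rearranged V, D and J segments are joined to another constant gene. Class switching removes the constant genes in between, so a cell that has switched to IgA cannot go back to IgM. In germinal centres B cells divide, mutate their V segments and are selected, while IgA also arises outside them, and secreted IgA coats bacteria at body surfaces. The constant genes lie on mouse chromosome 12 (GRCm38), Igha at positions 113256204 to 113260236 and Ighm at 113418826 to 113422730.

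The replicates held 2229, 5417, 3028 and 3170 IgA copies and 2396, 1351, 1486 and 2074 IgM copies, in the order of replicates 1 to 4. These IgA copies fell into 50, 97, 85 and 92 clonotypes, and the IgM copies into 235, 174, 191 and 145. The whole libraries held 2215 to 4183 copies each. In bulk RNA, more cells of a class and more transcript per cell cannot be told apart. Every sequence of a skin library was listed under 1 constant gene, with 0 of 1952 entries listed under more. Of the 49 skin sequences found in both technical libraries of a replicate, 2 had different constant genes in the 2 libraries.

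The junctions of the largest IgA clonotype and of the largest IgM clonotype found in both technical libraries are shown for each replicate, because these clonotypes hold the most copies that both libraries share and differ widely in V mutation. Capitals mark the first and last codons of the junction, which encode the conserved cysteine and tryptophan.
IgA replicate 1, IGHV14-3 with IGHJ2: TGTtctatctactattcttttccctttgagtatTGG
IgA replicate 2, IGHV1-7 with IGHJ3: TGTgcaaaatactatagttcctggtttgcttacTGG
IgA replicate 3, IGHV9-3 with IGHJ1: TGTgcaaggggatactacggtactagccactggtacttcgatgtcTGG
IgA replicate 4, IGHV14-1 with IGHJ2: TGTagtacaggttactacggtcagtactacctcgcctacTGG
IgM replicate 1, IGHV9-4 with IGHJ4: TGTgcgagaacccgtgctatggactacTGG
IgM replicate 2, IGHV6-3 with IGHJ1: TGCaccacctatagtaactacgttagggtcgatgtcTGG
IgM replicate 3, IGHV1-82 with IGHJ1: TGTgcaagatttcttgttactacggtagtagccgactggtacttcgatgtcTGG
IgM replicate 4, IGHV3-6 with IGHJ1: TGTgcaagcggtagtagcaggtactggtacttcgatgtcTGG

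IgA copies were held by a few large clonotypes and IgM copies were spread over many small ones, apart from an IgM clonotype of replicate 4 with 319 copies. IgA clonotypes held 44.6, 55.8, 35.6 and 34.5 copies on average in replicates 1 to 4, and IgM clonotypes 10.2, 7.76, 7.78 and 14.3. The lowest IgA replicate lay above the highest IgM replicate, and the means were 42.6 ± 9.91 and 10.0 ± 3.08 copies (SD, n = 4), a ratio of 4.26. The difference of 32.6 copies was larger than the spread between replicates, but the exact two-sided sign-flip test over the 4 replicates gave p = 0.125, the smallest it can give (0.188 after adjustment over 12 measures). Taken as unpaired, this difference and those of 7 more measures whose groups did not overlap (distinct clonotypes, the 10 largest clonotypes, single-copy clonotypes, presence in both libraries, V mutation, absence of V mismatch and CDR3 charge) each had an exact permutation p of 0.0286 and 0.0429 after adjustment. That unpaired p of 0.0286 is the smallest this test can give with 4 against 4 values, and groups that do not overlap always give it. Paired, each of the 8 had the p of 0.125.

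The direction of the size contrast depended on which average was taken. The median IgA clonotype held 1 copy in every replicate, while the median IgM clonotype held 3, 1, 3 and 2 copies. Geometric means were 3.90, 2.8, 3.56 and 3.97 copies for IgA and 4.14, 3.39, 3.74 and 4.35 for IgM, lower for IgA in all 4 replicates. The mean was therefore set by the largest IgA clonotypes, since 94.8% to 97.0% of IgA copies lay in the 13 to 23 clonotypes of each replicate with 20 or more copies. Among IgM, 18 to 54 clonotypes reached 20 copies and held 34.5% to 88.8% of copies.

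When both isotypes of every replicate were drawn down to 1351 copies, the 10 largest clonotypes held 93.3%, 94.7%, 84.5% and 77.1% of IgA copies. The 10 largest IgM clonotypes held 20.6%, 26.8%, 20.4% and 36.8%. IgA again lay above IgM without overlap, with means of 87.4% ± 8.20 and 26.1% ± 7.69 (SD, n = 4). The same draws left 37.4, 42.9, 54.3 and 59.1 distinct IgA clonotypes against 187, 174, 183 and 120 distinct IgM clonotypes. Replicate 4 was the least uneven pair on both measures. Before the draw, its largest IgM clonotype held 319 copies, 15.4% of its IgM. Its largest IgA clonotype held 374 copies, a smaller share of 11.8% of its IgA. Both are the same clonotype, IGHV14-1 with IGHJ2, listed under both constant genes.

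**Figure D1:**
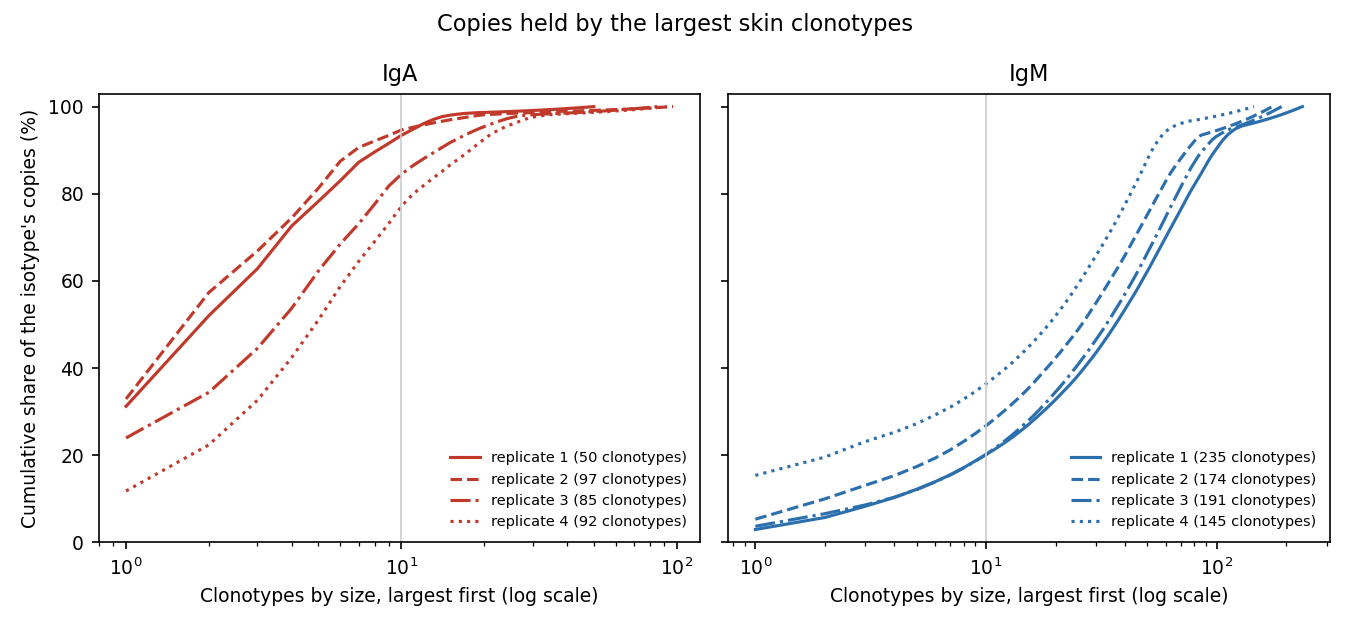
Cumulative share of an isotype's copies (%) against the number of clonotypes counted from the largest (log scale), one line per replicate, IgA on the left and IgM on the right. At the vertical line, the 10 largest, the IgA lines stand above every IgM line.

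Single-copy clonotypes made up 62.0%, 61.9%, 62.4% and 60.9% of IgA clonotypes and 45.5%, 50.6%, 42.4% and 48.3% of IgM clonotypes. The groups did not overlap, yet these clonotypes held at most 1.77% of the IgA copies and 6.51% of the IgM copies of a replicate. Of the single-copy clonotypes, 51.8% to 64.2% of IgA and 55.7% to 68.2% of IgM differed by 1 base from a larger clonotype of the same isotype that shared its V and J genes and its length, a measure added after the data were seen. The 726-copy IGHV9-3 clonotype of replicate 3 shows the pattern. Its 5 single-copy neighbours are printed below it, with the differing base in capitals.
IGHV9-3 with IGHJ1, 726 copies: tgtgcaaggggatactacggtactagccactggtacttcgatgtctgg
neighbour 1: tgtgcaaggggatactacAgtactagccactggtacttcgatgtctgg
neighbour 2: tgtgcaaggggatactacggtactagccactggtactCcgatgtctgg
neighbour 3: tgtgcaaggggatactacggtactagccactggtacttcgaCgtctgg
neighbour 4: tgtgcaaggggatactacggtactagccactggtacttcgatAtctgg
neighbour 5: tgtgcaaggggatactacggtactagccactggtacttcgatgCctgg
Whether such neighbours were real cells or copying errors was not tested. With them left out, 205 IgA and 534 IgM clonotypes remained, and single-copy clonotypes were 37.3% to 42.9% of IgA and 21.0% to 30.6% of IgM. Clonotypes of IgA held 1.57 ± 0.162 distinct sequences each and those of IgM 1.43 ± 0.0782 (SD, n = 4). On this measure IgA was higher in 3 of 4 replicates and the groups overlapped (exact sign-flip p = 0.375).

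**Figure D2:**
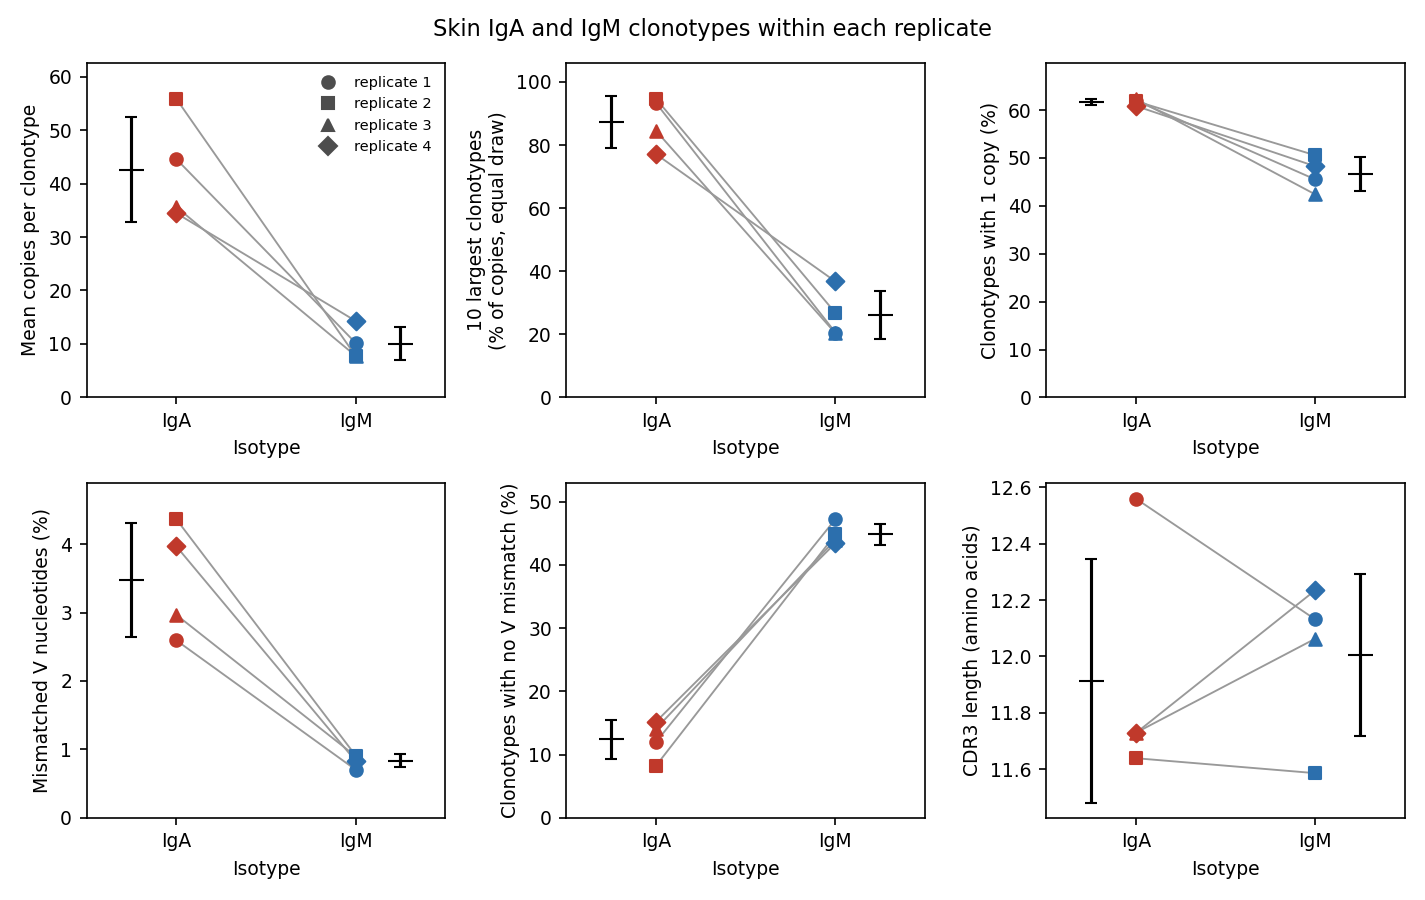
Values of 6 measures for IgA (red) and IgM (blue), one marker shape per replicate, with grey lines joining the isotypes of a replicate and black bars giving the mean ± SD of 4 replicates. The groups stand apart in the first 5 panels, and CDR3 length, on an axis that does not start at 0, crosses between replicates.

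IgA clonotypes were seen in both technical libraries of their replicate more often than IgM clonotypes, in each of the 4 replicates. The share found in both technical libraries was 20%, 14.4%, 16.5% and 18.5% for IgA and 1.70%, 0.575%, 2.09% and 2.07% for IgM. The difference of 15.7 percentage points was larger than the spread between replicates, with means of 17.3% ± 2.42 and 1.61% ± 0.713 (SD, n = 4). Clonotypes in both libraries held 84.6% to 95.5% of IgA copies and 1.63% to 9.76% of IgM copies.

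A larger clonotype has more chance to be seen in both libraries, so the share was also taken within size classes, pooled over replicates. Of clonotypes with 20 or more copies, 47 of 69 IgA (68.1%, exact 95% interval 55.8% to 78.8%) and 12 of 143 IgM (8.39%, 4.41% to 14.2%) were in both libraries. With 5 to 19 copies these were 3 of 25 IgA and 0 of 200 IgM, and with 2 to 4 copies 5 of 30 IgA and 0 of 56 IgM. The class of 20 or more copies is not matched in size, since 42 IgA and 9 IgM clonotypes in it exceeded 50 copies, and it was therefore divided, after the data were seen. Between 20 and 50 copies 8 of 27 IgA (29.6%, 13.8% to 50.2%) and 10 of 134 IgM (7.46%, 3.64% to 13.3%) were in both libraries, and above 50 copies 39 of 42 IgA and 2 of 9 IgM. Between 20 and 50 copies the replicate shares were 40%, 25%, 25% and 30% for IgA and 7.84%, 6.25%, 15.8% and 4.17% for IgM, higher for IgA in 4 of 4 (exact sign-flip p = 0.125). Above 50 copies IgA was higher in replicates 1, 2 and 4, while replicate 3 had 90.9% of IgA and 100% of IgM. The intervals are Clopper-Pearson intervals and cover counting error only. Presence was counted per isotype, and several IgM clonotypes with many copies had their IgM in 1 library alone. The largest, IGHV14-1 of replicate 4, held 319 IgM copies in library 2 and 0 in library 1. The same clonotype held 368 IgA copies in library 1, so it was in both libraries and only its IgM listing was not. IGHV1-64 of that replicate held 87 IgM copies in library 2 and 0 in library 1, and IGHV1-7 with IGHJ4 of replicate 1 held 71 and 0. Large IgA clonotypes in library 2 alone were IGHV1-9 of replicate 3, with 140 copies, and IGHV2-5 of replicate 4, with 89. How many RNA molecules or cells lay behind such counts was not tested.

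**Figure D3:**
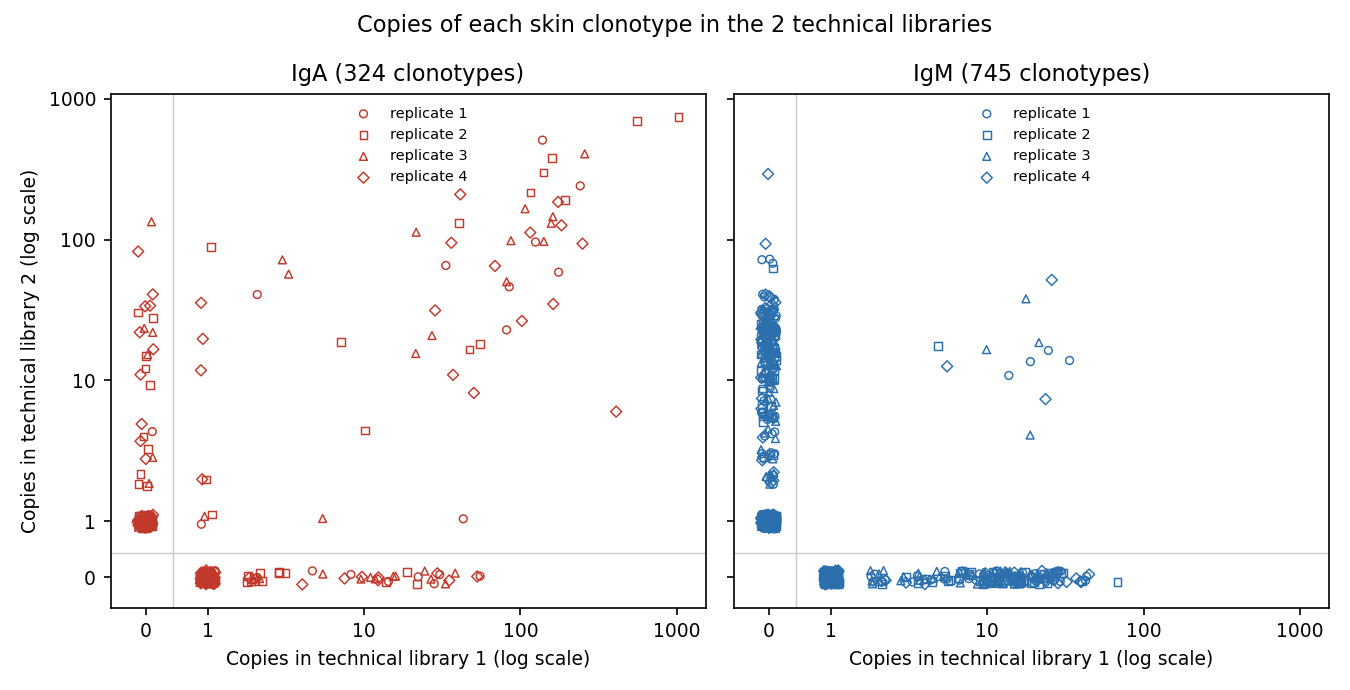
Copies of each clonotype in technical library 1 (horizontal) and technical library 2 (vertical), both on log scales with 0 drawn as a separate band and small random offsets, for the 324 IgA and 745 IgM clonotypes, with one marker shape per replicate. Of the clonotypes with 20 or more copies, 47 of 69 IgA and 12 of 143 IgM lie off the bands, and the others lie on them.

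IgA clonotypes carried about 4 times the V mutation of IgM clonotypes. The mismatched share of aligned V nucleotides was 2.59%, 4.36%, 2.97% and 3.97% for IgA and 0.704%, 0.911%, 0.901% and 0.831% for IgM. The lowest IgA replicate exceeded the highest IgM replicate, with means of 3.47% ± 0.830 and 0.837% ± 0.0954 (SD, n = 4) and a ratio of 4.15. The exact sign-flip p was again 0.125, the smallest possible. The aligned stretch had a median of 144 nucleotides in every library, and mutations upstream of it were not read.

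Clonotypes without any V mismatch were 12.0%, 8.25%, 14.1% and 15.2% of IgA and 47.2%, 44.8%, 44.0% and 43.4% of IgM. A clonotype counts here only if none of its copies has a mismatch, so clone size can bear on this share. More than 5 mismatches were found in 32.0%, 62.9%, 34.1% and 55.4% of IgA clonotypes and in 3.83%, 9.20%, 9.42% and 6.90% of IgM clonotypes. IgA replicates 2 and 4 stood above replicates 1 and 3, where 40.0% and 34.1% of IgA clonotypes had above 0 to 2 mismatches. Most IgM clonotypes of every replicate had at most 2 mismatches, while IgA clonotypes were spread over the whole range.

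V mutation was also taken by clone size, a split added after the data were seen. With 20 or more copies, IgA clonotypes carried 2.51%, 4.12%, 2.53% and 4.67% mismatches and IgM clonotypes 0.173%, 0.441%, 0.105% and 0.205%. Of these large clonotypes, 86 of 143 IgM and 8 of 69 IgA had no V mismatch in any copy. Any mismatched copy takes a clonotype out of this count. IGHV9-3 with IGHJ1 of replicate 3, with 726 IgA copies and 0.0125% mismatched, was therefore not among the 8. Single-copy IgM clonotypes carried 1.17% to 1.57%, more than the large IgM clonotypes of every replicate, while single-copy IgA clonotypes carried 2.36% to 4.94%. The 1-base neighbours of larger IgM clonotypes carried 0.44% to 0.609%, and the other single-copy IgM clonotypes 2.36% to 3.29%. Mismatches that change the amino acid made up 64.9% to 78.3% of the V mismatches of distinct IgA sequences and 61.6% to 73.2% of those of IgM, ranges that overlapped.

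**Figure D4:**
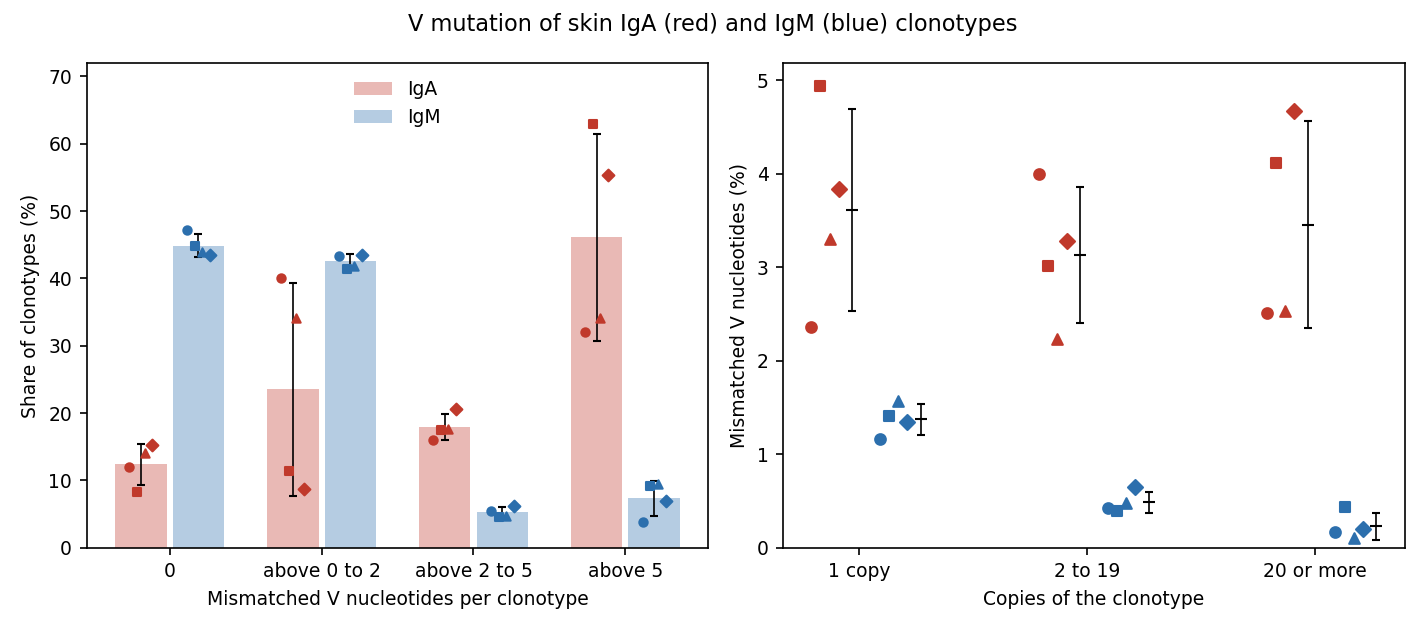
Left, share of clonotypes (%) by number of mismatched V nucleotides, with bars for the mean of 4 replicates, error bars for the SD and a marker per replicate. Right, mean V mismatch (%) by copies of the clonotype, with black bars for mean ± SD; IgM means are 1.37% at 1 copy and 0.231% at 20 or more, and IgA means lie between 3.13% and 3.61%.

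The leading IgA clonotypes were heterogeneous in mutation. The largest of replicate 1, IGHV14-3 with IGHJ2, held 696 copies, 142 and 554 in the 2 libraries, which were 31.2% of the replicate's IgA, and 7.76% of its V nucleotides were mismatched. In replicate 2, IGHV1-7 with IGHJ3 held 1783 copies, 989 and 794, with 4.87% mismatched. It was followed by IGHV5-6 with 1324 copies and 2.12%, and by IGHV1-26 with 515 copies and 6.95%. All 4 were mutated and present in both libraries.

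Other leading IgA clonotypes were at or near the germline sequence. In replicate 3 IGHV9-3 with IGHJ1 held 726 copies, 284 and 442, with 0.0125% mismatched. IGHV9-3 with IGHJ2 of that replicate held 305 copies with 0.0114%, and IGHV9-3 with IGHJ3 of replicate 1 held 464 copies, 223 and 241, with 0.00449%. All 3 used the same V gene (Ighv9-3, chromosome 12, 114140692 to 114141122) with different J genes and junctions. The remaining leaders were IGHV2-2 of replicate 1 with 240 copies and 3.51%, IGHV1-53 of replicate 3 with 317 copies and 0.705%, and, in replicate 4, IGHV14-1 with 374 copies and 3.49%, IGHV1-50 with 336 and 7.67%, and IGHV1-42 with 324 and 4.17%.

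The IgM clonotypes found in both libraries were small and close to germline. The largest was IGHV3-6 with IGHJ1 of replicate 4, with 74 copies, 26 and 48, and 0.724% mismatched. IGHV1-82 with IGHJ1 of replicate 3 held 55 copies, 19 and 36, and 0 mismatches, and IGHV9-4 of replicate 1 held 48 copies and 0.203%. In replicate 2 IGHV6-3 with IGHJ1, 22 copies and 0.156%, was the only IgM clonotype in both libraries. The other 6 among the 3 largest of each replicate found in both libraries held 20 to 43 copies and at most 0.337% mismatches. Of the 324 IgA and 745 IgM clonotypes, 0 recurred in another skin replicate.

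Among J genes, IGHJ3 took a larger share of IgA than of IgM clonotypes in every replicate. Its shares were 18%, 32.0%, 23.5% and 16.3% of IgA clonotypes and 9.79%, 6.90%, 8.90% and 5.52% of IgM clonotypes. The groups did not overlap and the means were 22.4% ± 7.05 and 7.78% ± 1.93 (SD, n = 4), but the exact sign-flip p was 0.125, or 0.5 after adjustment over the 4 J genes, and the unpaired exact permutation p was 0.114 after the same adjustment. As a share of copies IGHJ3 was also higher in IgA in 4 of 4 replicates, at 24.6% ± 12.2 against 6.65% ± 1.79 (SD, n = 4). With lineages, or in technical library 1 alone, IGHJ3 was not higher in IgA in all 4 replicates, and the exact sign-flip p was 0.25 in each case. The IGHJ3 segment lies between IGHJ2 and IGHJ4 at 113429085 to 113429132 of chromosome 12.

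The other J genes overlapped between isotypes. IGHJ1 averaged 14.7% of IgA and 20.8% of IgM clonotypes, and no IgA clonotype of replicate 2 used it. IGHJ2 averaged 30.8% and 32.7%, and IGHJ4 32.1% and 38.7%. IGHJ2 was higher in IgA in 2 of 4 replicates, and IGHJ1 and IGHJ4 in 1 of 4.

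The V families divided into IGHV1, with near the same mean share in both isotypes, and small families with uneven shares. IGHV1, the largest mouse family, averaged 62.0% ± 12.1 of IgA and 62.2% ± 5.37 of IgM clonotypes (SD, n = 4). IGHV14 was higher in IgA in 4 of 4 replicates, at 4%, 5.15%, 3.53% and 10.9% against 1.70%, 1.15%, 2.62% and 1.38%, from 20 IgA and 13 IgM clonotypes in all. Its groups did not overlap, but the exact sign-flip adjusted p was 0.625 over 10 families, and without replicate 4 the difference was 2.40 rather than 4.18 percentage points. As a share of copies IGHV14 was higher in IgA only in replicate 1, at 31.6% against 0.501%. IGHV6 was at 0%, 0%, 0% and 3.26% of IgA against 2.13%, 7.47%, 2.62% and 4.83% of IgM, lower in IgA in each replicate but overlapping between replicates, with 3 and 30 clonotypes in all and the same adjusted p.

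IGHV9 averaged 9.48% ± 5.09 of IgA and 4.35% ± 1.70 of IgM clonotypes (SD, n = 4) and was higher in IgA in 3 of 4 replicates. The means of the remaining families for IgA and IgM were 5.85% and 9.27% for IGHV5, 4.2% and 3.62% for IGHV2, 4.30% and 3.69% for IGHV8, 2.63% and 5.48% for IGHV3, 3.15% and 1.71% for IGHV10, and 0.543% and 1.83% for IGHV7. All of them overlapped.

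**Figure D5:**
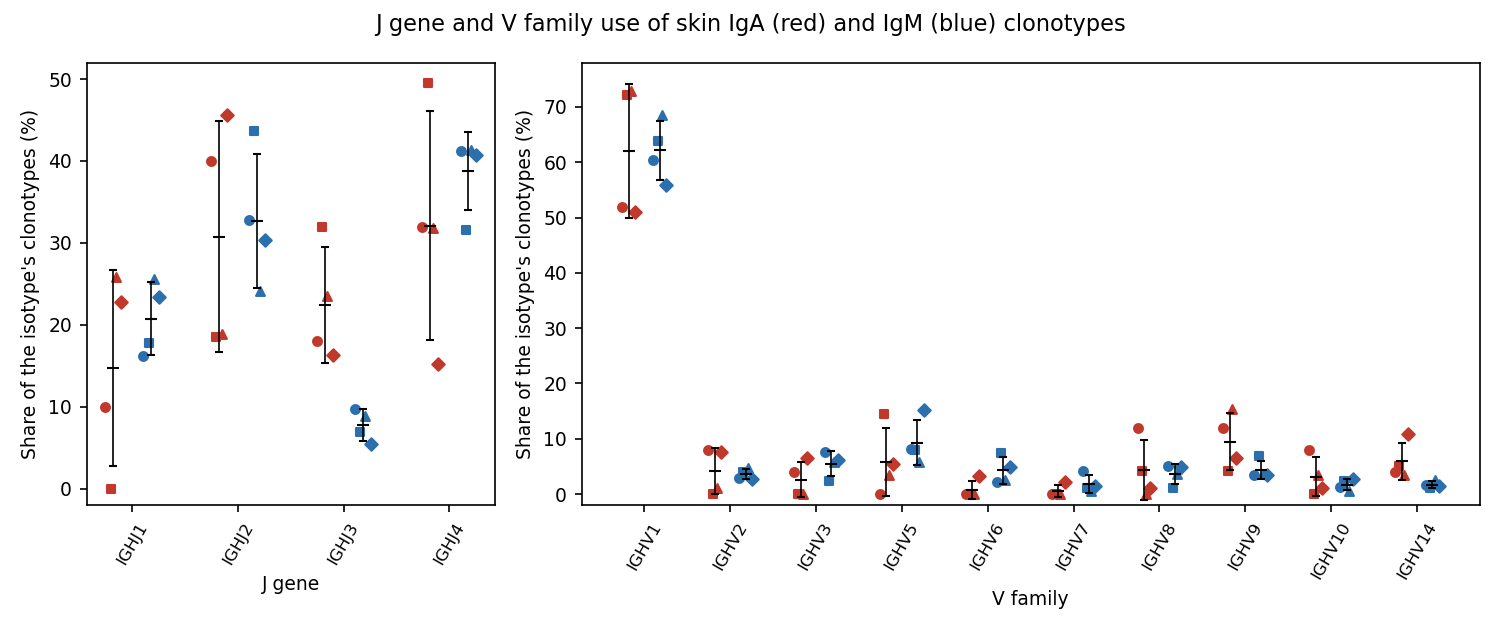
Share of clonotypes (%) using each J gene (left) and each V family of at least 1% (right) for IgA (red) and IgM (blue), one marker shape per replicate, with black bars for mean ± SD. IGHJ3 and IGHV14 are the 2 of 14 whose IgA and IgM replicates do not overlap.

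Single V genes were tested on clonotypes per gene with edgeR's quasi-likelihood test, with the replicate as a block. Of 39 V genes with at least 10 clonotypes, 0 passed an adjusted p of 0.05 (0% called), 1 had an unadjusted p under 0.05, and DESeq2 also called 0, with 3 under 0.05. The lowest edgeR adjusted p was 0.782.

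The V genes with the smallest p that were lower in IgA were IGHV1-66, IGHV1-82 and IGHV1-72. IGHV1-66 was in 0 of 324 IgA clonotypes and in 10 IgM clonotypes, at 0.851%, 2.30%, 1.57% and 0.690% of the replicates. The count of 0 allows an IgA share of up to 0.926%, taken as 3 divided by 324. That bound treats clonotypes as independent, but they join into 153 lineages, so it is too tight. IGHV1-82 was in 3 IgA and 33 IgM clonotypes (log2 fold change -2.40, SE 1.36), and IGHV1-72 in 3 and 33 (log2 fold change -2.42, SE 1.44). Higher in IgA were IGHV9-3, with 22 and 21 clonotypes (log2 fold change 1.08, SE 0.82, but 0.56 without replicate 3, 0.72 without replicate 1 and 1.86 without replicate 2), IGHV1-15 with 9 and 3, and IGHV1-84 with 15 and 2. All 15 IgA clonotypes of IGHV1-84 came from replicate 2. The most used V genes for IgA were IGHV1-26, IGHV9-3, IGHV1-53, IGHV1-64 and IGHV1-42, at means of 8.19%, 7.40%, 5.95%, 4.88% and 4.17%. For IgM they were IGHV1-26, IGHV1-82, IGHV3-6, IGHV1-72 and IGHV5-6, at 9.74%, 4.61%, 4.42%, 4.34% and 3.93%. Some of these means were uneven over replicates 1 to 4. IGHV1-64 was at 16%, 0%, 3.53% and 0% of IgA, and IGHV5-6 at 2.13%, 2.87%, 1.05% and 9.66% of IgM.

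The CDR3, the loop formed where the segments join, overlapped in mean length between the isotypes when each clonotype counted once. Mean length was 12.6, 11.6, 11.7 and 11.7 amino acids for IgA and 12.1, 11.6, 12.1 and 12.2 for IgM. IgA was longer in 2 of 4 replicates, and the mean difference of -0.0896 amino acids ranged from -0.506 to 0.428 over replicates. With clonotypes weighted by copies IgA was shorter in 4 of 4 replicates, at 11.2 against 11.8 amino acids, a difference of -0.582 (exact sign-flip p = 0.125, adjusted 0.188), and in clonotypes of both libraries the difference was -0.772 (exact sign-flip p = 0.25). Mean CDR3 net charge was -0.280, -0.0825, -0.153 and -0.0761 for IgA and -0.366, -0.414, -0.335 and -0.448 for IgM, less negative in IgA in all 4 without overlap (exact sign-flip p = 0.125). In technical library 2 alone, without single-copy clonotypes and at 20 or more copies, the mean charge difference stayed positive. There IgA was not higher in all 4 replicates, and the exact sign-flip p was 0.25 in each case. Among clonotypes in both libraries the order turned, with a difference of -0.168, where the IgM value of each replicate rests on 1 to 4 clonotypes. Hydropathy averaged -0.706 and -0.698 and the tyrosine share 19.7% and 20.8% for IgA and IgM, and both overlapped.

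Clonotypes holding both isotypes numbered 1, 4, 3 and 6 in replicates 1 to 4. They were 2%, 4.12%, 3.53% and 6.52% of IgA clonotypes and 0.426%, 2.30%, 1.57% and 4.14% of IgM clonotypes. In 9 of the 14 both isotypes had at least 2 copies, and in 0 were both isotypes in both technical libraries. With related clonotypes joined into lineages, 25 lineages held both, among 153 lineages with IgA and 502 with IgM. These were 11.1%, 22.2%, 16.7% and 14.6% of IgA lineages in replicates 1 to 4, higher shares than for clonotypes. Of IgM lineages they were 1.96%, 6.90%, 5.30% and 6.93%.

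In 3 clonotypes both isotypes reached 15 or more copies. IGHV14-1 with IGHJ2 of replicate 4 held 374 IgA copies, 368 in library 1 and 6 in library 2, and 319 IgM copies, 0 and 319. IGHV1-77 with IGHJ4 of replicate 2 held 81 IgA copies, 1 and 80, and 72 IgM copies, 72 and 0. IGHV1-42 with IGHJ1 of replicate 3 held 15 IgA copies, 0 and 15, and 18 IgM copies, 18 and 0. In all 3 most IgA copies lay in the library other than the one holding the IgM copies. The bearing of this on whether the isotypes belong to 1 clone was not tested.

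The leading sequences of the first and second are printed because they hold a mutated V segment listed under both constant genes. The IGHV14-1 sequence (Ighv14-1, chromosome 12, 113931953 to 113932246) of 207 nucleotides was the same in 367 IgA and 319 IgM copies, with 5 V mismatches in 144 aligned nucleotides, all of them changing the amino acid. It is among the 2 of 49 skin sequences found in both libraries with different constant genes in them. The leading IGHV1-77 sequences of 219 nucleotides, with 79 IgA and 72 IgM copies, each had 6 V mismatches and differed from each other by 1 base, in capitals. That base lay outside the junction.
IGHV14-1, IgA and IgM: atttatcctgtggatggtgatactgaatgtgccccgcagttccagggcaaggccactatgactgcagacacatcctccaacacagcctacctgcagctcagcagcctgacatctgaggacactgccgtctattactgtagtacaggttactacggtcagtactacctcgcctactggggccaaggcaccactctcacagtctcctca
IGHV1-77, IgA: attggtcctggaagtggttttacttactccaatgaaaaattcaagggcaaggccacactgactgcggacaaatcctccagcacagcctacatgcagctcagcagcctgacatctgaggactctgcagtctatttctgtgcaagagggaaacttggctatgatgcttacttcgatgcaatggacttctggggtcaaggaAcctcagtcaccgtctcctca
IGHV1-77, IgM: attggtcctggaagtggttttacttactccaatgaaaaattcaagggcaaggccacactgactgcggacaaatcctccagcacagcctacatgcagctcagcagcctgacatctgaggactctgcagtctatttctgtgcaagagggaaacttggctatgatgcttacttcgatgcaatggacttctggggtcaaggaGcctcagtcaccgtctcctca

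In the other 11 clonotypes the rarer isotype had 1 to 4 copies. They included IGHV1-53 of replicate 2 with 13 IgA and 4 IgM copies, IGHV5-4 of replicate 3 with 12 and 4, IGHV9-3 of replicate 4 with 13 and 3, a pair of IGHV9-2 clonotypes of replicate 4 with 17 and 2 and with 3 and 2, and IGHV1-54 of replicate 2 with 2 and 42. IGHV1-19 of replicate 1 held 1 and 12. Within the 14 clonotypes IgA carried more V mismatch than IgM in 8 and less in 6, with a mean difference of 0.0641 percentage points over replicates (exact sign-flip p = 1). The replicate means within these clonotypes were 0.694%, 1.39%, 1.45% and 0.931% for IgA and 0.231%, 1.46%, 1.5% and 1.02% for IgM, which overlapped. Each sequence is listed under 1 constant gene of its library, and only 2 of the 14 clonotypes had a sequence listed under both isotypes. In the 11 clonotypes above, the rarer isotype carried the higher mismatch, except in IGHV1-42 of replicate 2 (IgA 0.694%, IgM 0.992%). So the 8 and 6, and the test, cannot tell isotype apart from rarity.

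IgD, which a naive B cell makes together with IgM from one transcript, was found in 5 of 324 IgA and 3 of 745 IgM clonotypes, a count added after the data were seen. Both counts bear the limit that a sequence is listed under a single constant gene of its library. Among spleen sequences found in both technical libraries 5105 of 52969 (9.64%) had different constant genes in them, and in lymph node 2409 of 11480 (21.0%).

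The contrast of IgA with IgM in skin was set against that in spleen, with spleen replicates drawn down to the copies of the skin replicate of the same number. Each spleen value is a mean over 100 draws, which averages out sampling error, while each skin value is not averaged. The SDs of skin and spleen therefore cannot be compared. The mutation difference was 2.64 ± 0.775 percentage points in skin and 2.53 ± 0.171 in spleen (SD, n = 4, exact permutation p = 0.8). The log2 ratio of mean copies per clonotype was 2.11 ± 0.65 and 1.40 ± 0.07 (exact permutation p = 0.143), and the gap in clonotypes found in both libraries 15.7 ± 2.03 and 21.5 ± 2.8 percentage points (exact permutation p = 0.0571, adjusted 0.286 over 5 measures). That last difference of -5.77 points between the tissues was -0.282 with spleen at full depth and -0.186 with lymph node in place of spleen. Lymph node IgA had too few copies to be drawn down in replicates 1, 2 and 3, so depth was not matched there. CDR3 length differences were -0.0896 and 0.107 amino acids, and clonotypes holding both isotypes numbered 4.04 and 2.70 per 100 IgA clonotypes (exact permutation p = 0.429 and 0.286). None of the 5 differences between skin and spleen passed the test, which does not show that the tissues are alike.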

How the data were processed

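Per the labels' protocols, a commercial service reverse-transcribed RNA with constant-region primers carrying a 10-nucleotide molecular identifier, extended it with V primers and sequenced paired reads. For each library, the deposited tables hold the distinct heavy-chain sequences, their V, J and constant genes, their junctions and a whole-number count, here named copies. Whether the count is of identifiers or of reads is not stated, so amplification may shape clone size. The authors' deposited tables also give V mismatches and aligned length. The build was mm10, per the submitters' processing notes, and no aligner is given in the sources used here. Tissues were read from the titles, since the tissue field names ear skin for libraries of other tissues too.

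IgA and IgM of a replicate come from the same libraries, so the replicate is the pair: measures were tested by an exact two-sided sign-flip of the 16 sign patterns, with Benjamini-Hochberg adjustment over the 12 measures, 4 J genes or 10 V families. V genes were tested with edgeR 4.0.16 (R 4.3.3), total clonotypes as library size, replicate and isotype as terms, and DESeq2 1.42.0 as an alternative. The edgeR step was checked on simulated counts. Shares at equal copies are means over 100 draws. Lineages join clonotypes that share V and J genes and CDR3 length at 85% identical nucleotides. Gene positions are those of RefSeq. Values used Python 3.11.15, pandas 2.3.3 and scipy 1.17.1.

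The replicates held 4976 to 7495 copies. V genes named were those passing the threshold or else the 3 of smallest p in each direction, and the 5 most used per isotype. Clonotypes named were the 3 largest per isotype and replicate found in both libraries, and the 10 with the most copies of the rarer isotype. Large clonotypes found in 1 library alone were chosen after their values were seen. Members and lists were chosen with earlier results of these data known. The positive control was not used.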

Additional observations from a re-analysis of the deposited data

Results flagged for a closer look

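Of 52 groups of 4 replicates examined, 5 had a highest or lowest replicate far from the other 3, where chance alone flags about 1 group in 20. CDR3 length of IgA in replicate 1 was 12.6 amino acids, above 11.6 to 11.7 in the other replicates. IGHJ4 in IgM of replicate 2 was 31.6%, below 40.7% to 41.4%. IGHV9 in IgM of replicate 2 was 6.90%, above 3.40% to 3.66%. IGHV6 in IgA was 3.26% in replicate 4 and 0% in the others, and IGHV7 in IgA was 2.17% in replicate 4 and 0% in the others. With the others all at 0%, any value above 0% is flagged, so the IGHV6 and IGHV7 flags cannot be set against that rate.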

How the results depend on the processing

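The sign of the mean difference was kept under the alternatives run for V mutation, the share without V mismatch, the share with 1 copy, the share in both libraries, distinct clonotypes and the 10 largest clonotypes. The paired test cannot pass, so its side of the threshold carries no information. Without the replicate block, that is unpaired, 8 measures passed with the same differences, namely 32.6 copies per clonotype, -118 distinct clonotypes, 61.3 points for the 10 largest, 15.1 points for 1 copy, 15.7 points for both libraries, 2.64 points of mutation, -32.5 points without mismatch and 0.243 of charge. These are the measures whose groups did not overlap, which fixes the unpaired p at its smallest. Over the alternatives that keep all replicates the difference ranged from 2.43 to 3.70 for mutation, from -50.7 (copies as weights) to -12.5 (clonotypes of both libraries, exact sign-flip p = 0.5) without mismatch, and from 10.4 (5 to 19 copies) to 59.3 (more than 50 copies) for both libraries, which was 34.0 with lineages. Mean copies turned to -1.25 with medians and -0.346 with geometric means. CDR3 length turned to 0.157 with lineages and 0.0350 without 1-base neighbours. Hydropathy turned to 0.0197 with lineages, 0.0282 in library 1 alone, 0.0380 without single-copy clonotypes, 0.00289 without 1-base neighbours and 0.00679 at 20 or more copies. In clonotypes of both libraries charge turned to -0.168 and tyrosine to 1.87. Sequences per clonotype turned to -0.136 in library 1 alone. Alternatives on 1-base neighbours, on 20 or more copies for mutation, CDR3 and gene use, and on 20 to 50 and more than 50 copies were chosen after seeing the data.

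Leaving out a replicate gave differences of 2.36 to 2.89 for mutation, 27.5 to 36.8 copies per clonotype, 14.9 to 16.4 for both libraries, -0.262 to 0.0492 for CDR3 length (positive without replicate 4) and -0.0440 to 0.0376 for hydropathy (positive without replicate 1 or replicate 4). Clonotypes holding both isotypes were 8 to 13, with 8 without replicate 4, 25 as lineages, 9 at 2 copies or more and 0 with each isotype in both libraries. Their mutation difference ranged from -0.0688, without replicate 1, to 0.116, and was -0.282 at 2 copies or more. V genes called stayed at 0. A mutation value for clonotypes with each isotype in both libraries could not be given.

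Against spleen, the log2 copies ratio turned to -0.47 without thinning and -0.52 with lymph node, and shared clonotypes per 100 IgA to -1.82 without thinning. In lymph node, IgA was drawn down only in replicate 4. Without a skin replicate the mutation difference ranged from -0.168 (replicate 2) to 0.353, and was -0.0625 without replicate 4. The IgM values of clonotypes in both libraries rest on 1 to 4 clonotypes a replicate.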
